A study of Mus musculus with 23 samples.

Results

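Medullary thymic epithelial cells high for MHC class II (mTEChi) of wild-type (WT) C57BL/6 mice were described here by how many genes they transcribe, at what level, and how much each gene varied between libraries. All 7 libraries labelled mTEChi and WT were used, of 23 in the series, and no other group was set against them. Each library was bulk RNA sequencing of thymic cells sorted as DAPI-negative, CD45-negative, EpCAM-positive, Ly51-negative and MHCII-high. Total RNA was primed with oligo dT together with not-so-random primers, and tagmentation with Tn5 left no record of strand. Replicates 3 to 7 came from mice of 5 weeks, of which replicates 4 and 5 were female and replicates 3, 6 and 7 male, and replicates 1 and 2 from male mice of 4 weeks. The labels give no allele, transgene or treatment for these mice, and do not say whether libraries came from separate animals, so SDs and p-values measure the spread between these libraries, which may be technical. Library totals were 2750800 to 3231079 counts in the 5-week libraries, against 1602125 and 1655955 in the 4-week libraries. The table held 53402 genes, of which the 49132 on the 19 autosomes were analysed. They took 97.2 ± 0.207% of the counts (SD, n = 7).

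The medulla of the thymus shows developing T cells the proteins of other organs, so that clones reacting with them are removed or diverted. mTEChi cells do this by transcribing many genes that are otherwise restricted to single tissues, and the nuclear protein Aire is known to drive a large set of them. Each such gene is thought to be made in a minority of the cells at any time, and a bulk library averages over its cells. A subset of medullary cells, called mimetic cells, carries the programmes of tuft, microfold, ciliated, muscle or other peripheral cell types.

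Levels are given as CPM, the count of a gene per 1000000 counts of its library, and for comparisons between genes as TPM, which also divides by exon length. A gene with no count in any library could still lie at up to 0.165 CPM, the level of 3 counts over the group. Limits and intervals of this kind cover counting error only.

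Nearly the whole protein-coding repertoire left reads in these cells. Of 20719 autosomal protein-coding genes, 19653 (94.9%) had a count in at least 1 library, 16345 (78.9%) in all 7, and 16730 (80.7%) a mean of 1 CPM or more. Of all 49132 autosomal genes, 39148 (79.7%) were counted at least once, 21975 (44.7%) were counted in every library, and 22489 (45.8%) had a mean of 1 CPM or more. Long non-coding genes were counted often and at low levels, 7371 of 8437 (87.4%) at least once but 409 (4.85%) at 10 CPM or more. Among pseudogenes, 6771 of 10688 (63.4%) were counted and 1030 (9.64%) had a mean of 1 CPM or more. Reads were counted without strand, so a pseudogene, an antisense gene or an overlapping gene can hold reads of its partner, and those counts are uncertain.

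A single library of the smallest size found most of this breadth. At a common depth of 1602125 counts, 26995 to 27871 autosomal genes were expected per library, of which 17476 to 17836 were protein-coding. At full depth a library held 27152 to 31224 genes. The number of genes at 1 CPM or more was 21884 to 23126 per library.

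**Figure D1:**
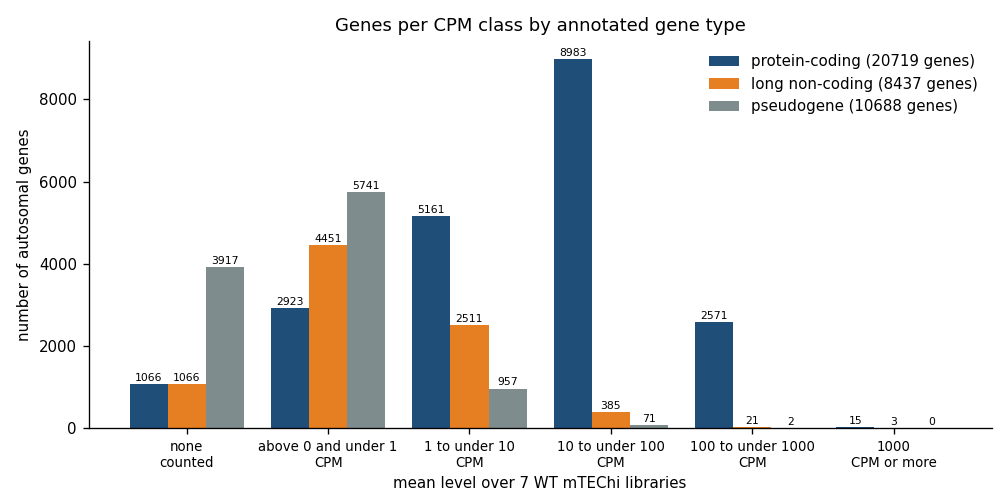
Number of autosomal genes (vertical axis) in each class of mean CPM over the 7 WT mTEChi libraries (horizontal axis), with 1 bar for each annotated gene type. Protein-coding genes peak in the class of 10 to under 100 CPM with 8983 genes, while long non-coding genes and pseudogenes peak below 1 CPM.

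Most reads came from the middle of the range. The 9786 genes of 10 to under 100 CPM held 37.7 ± 1.09% of autosomal reads, and the 2597 genes of 100 to under 1000 CPM held 54.9 ± 1.09% (SD, n = 7). Only 18 genes had a mean of 1000 CPM or more, and they held 2.996 ± 0.262%. At the other end, 16659 counted genes lay under 1 CPM and held 0.496 ± 0.0418% together. No gene dominated a library, since the 10 highest genes took 1.88 to 2.34% of autosomal reads and it took 1755 to 1999 genes to reach 50% of them. That number was 1946 to 1999 in the 5-week libraries, against 1764 and 1755 in the 4-week libraries.

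The 1066 protein-coding genes without a count were mostly unnamed gene models and members of a few clustered families. Gene models made up 507 of them. Olfactory receptors, the odorant receptors of the nasal epithelium, made up 214, vomeronasal receptors of the pheromone organ 95, keratin-associated proteins of hair 20, defensins, which are antimicrobial peptides, 19, and secretoglobins, small secreted proteins, 18. These families and the ones that follow were chosen after their values were seen, and near-identical members can lose reads that map to several of them.

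Members of the receptor families were mostly counted, at levels near the limit of detection. Reads were found for 914 of 1128 olfactory receptors (81.0%), beside 94.9% of all protein-coding genes, but in all 7 libraries for 102 of them (9.04%). The median member had 0.178 CPM, near the 0.165 CPM of 3 counts over the group. A total of 136 had a mean of 1 CPM or more and 5 of 10 CPM or more, and the summed level of the family was 563 to 700 CPM per library. Of 319 vomeronasal receptors 224 (70.2%) were counted, 32 in all 7 libraries, and 37 had a mean of 1 CPM or more. Other families were complete. All 49 keratins, 12 mucins, 39 Hox genes, 79 potassium channel genes and 356 solute carriers left reads, and 46 keratins, all 12 mucins, 25 Hox genes, 68 potassium channel genes and 346 solute carriers had a mean of 1 CPM or more. Type I interferons stood at 13 counted of 20, with 4 at 1 CPM or more.

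Ranked by reads, 2 non-coding RNAs came before the first protein-coding gene. The nuclear RNAs Neat1 (2677, 3145 and 3415 CPM in the lowest, median and highest library) and Malat1 (2223, 2463 and 3919 CPM) held these places. They were followed by Fcgbp, a mucus protein that binds the Fc part of IgG (2506, 2609 and 3253 CPM), the giant sarcomere protein gene Ttn (2188, 2584 and 3030.3 CPM) and Sspo, which codes for the spondin secreted by the subcommissural organ of the brain (1410.0, 2026 and 2756 CPM). Macf1, Fat1, Srrm2, Dync1h1, Rnf213 and Myh9 were among the protein-coding genes that followed. The median exon length was 2136 bases among genes of 1 to under 10 CPM, 4239.5 at 10 to under 100 CPM, 7299 at 100 to under 1000 CPM and 12885 at 1000 CPM or more.

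Per length, the order was led by a calcium-binding protein and by antigen presentation. S100a2 stood first with 3084 ± 135 TPM (SD, n = 7), and it was rank 766 by reads. B2m, the light chain of MHC class I, had 2147 ± 563 TPM, and Cd74, the invariant chain of MHC class II, 1923 ± 303 TPM. Ubd, a ubiquitin-like protein induced by interferon, H2-Eb1, a class II chain, Fcgbp, the chaperone gene Hsp90ab1, the elongation factor gene Eef2, Actb and H2-K1, a class I heavy chain, completed the top 10 of named protein-coding genes, at 989 to 1425 TPM. H2 genes resemble one another, so their reads may be shared. Ttn had 96.1 ± 13.1 TPM and rank 2252 on this scale, and rank 4 by reads.

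Aire itself (chr10:78030022-78043610, mm10) was among the most abundant genes of these cells on both scales. It had 776, 831 and 938 CPM (lowest, median and highest library), rank 26 by reads, and 950.4 ± 61.2 TPM (SD, n = 7), rank 17 per length. Fezf2, the other transcription factor known to drive tissue-restricted genes in the medulla, had 238, 284 and 311 CPM and 401 ± 37.5 TPM, rank 118 per length. Cd80, a costimulatory ligand, had 191, 204 and 220.2 CPM, and Epcam, the surface protein used in the sort, 221, 226 and 311 CPM. Epcam was lower at 5 weeks, with 221 to 248 CPM in the 5-week libraries, against 311 and 283 CPM in the 4-week libraries and a log2 difference of -0.45 ± 0.08 (SE; edgeR adjusted p = 0.00138). Fezf2 did not overlap between the ages either, and its difference did not pass the test. Aire and Cd80 overlapped.

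**Figure D2:**
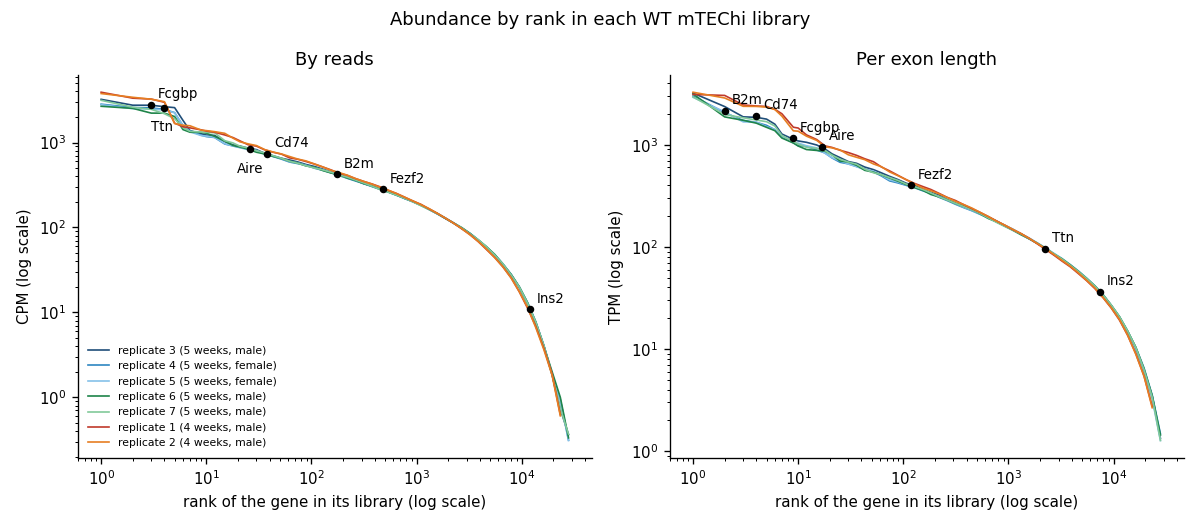
Level of each gene (vertical axis, CPM on the left and TPM on the right, log scales) against its rank in the library (horizontal axis, log scale), with 1 line for each of the 7 WT mTEChi libraries and points for named genes at their mean level and rank over the libraries. The 5-week libraries hold 13 to 17 genes at 1000 CPM or more and the 4-week libraries 22 each, and Ttn moves from rank 4 by reads to rank 2252 per length.

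The lists for the sorted cells were complete, and so were some lists of other cells but not all of them. All 12 genes of cortical epithelium and all 13 of fibroblasts were counted in every library, at medians of 47.7 and 17.6 TPM. All 20 genes of thymic epithelium and mTEC identity and all 17 of MHC class II and maturation were counted in every library at 10 CPM or more on average, with median levels of 222 and 251 TPM beside 16.9 TPM over all autosomal protein-coding genes. Tnfrsf11a, the receptor RANK through which the medulla matures, had 513, 552 and 586 CPM. All 22 genes of the list of Aire and its known partners were also at 10 CPM or more. Ccl21a, the chemokine of less mature medullary cells, had 4.73, 8.64 and 9.99 CPM.

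Antigens of many organs were present together. All 18 Aire-dependent and all 13 genes of the Fezf2-dependent list, which holds Fezf2 itself, were counted, 17 of 18 and 13 of 13 of them with a mean of 1 CPM or more. Of all autosomal protein-coding genes, 94.9% were counted and 80.7% had a mean of 1 CPM or more. Such counts alone therefore do not set these lists apart. Csn2, the milk protein beta-casein, had 318, 377 and 569 CPM, and Mucl2, a salivary mucin-like protein, had 21.4, 27.2 and 35.0 CPM. Ins2, one of the mouse insulin genes, had 4.37, 10.6 and 16.3 CPM, and reads at its locus may come from overlapping transcripts. Gad1, the enzyme that makes GABA, had 64.3, 81.5 and 102 CPM and is often cited as independent of Aire. Crp, the acute phase protein of liver, had 12.1, 14.4 and 20.1 CPM.

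Counted by organ, coverage was complete for intestine and stomach and for lung, and the share was lowest for salivary and lacrimal gland and for testis. A mean of 1 CPM or more was reached by 29 of 29 genes of intestine and stomach, 29 of 30 of liver, 16 of 16 of lung, 22 of 23 of neurons and glia and 21 of 23 of retina and lens. It was reached by 28 of 33 of pancreas, 21 of 25 of kidney, endocrine organs and prostate, 15 of 22 of testis and sperm and 14 of 22 of salivary and lacrimal gland, beside 80.7% of all autosomal protein-coding genes. The gastric mucin gene Muc5ac (246, 327 and 432 CPM) and Apob, the apolipoprotein of liver and intestine (248, 359 and 426 CPM), lay above 100 CPM in every library. Median levels per length were 83.4 TPM for the intestine and stomach list, 47.2 TPM for liver and 3.77 TPM for testis.

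Most genes of the mimetic cell lists were counted in every library. All genes of the keratinocyte, microfold, ciliated and neuroendocrine lists had a mean of 1 CPM or more (24, 13, 21 and 19 genes). So did 19 of 20 of the tuft, 24 of 26 of the muscle and 14 of 15 of the ionocyte list. The share was 80.7% over all autosomal protein-coding genes. In lists of other cells it was 13 of 13 for fibroblasts, 12 of 12 for B cells and 15 of 19 for thymocytes. These counts alone do not show that a programme is present. The axonemal motor gene Dnah9 had 213, 242 and 259 CPM, the microfold glycoprotein gene Gp2 67.8, 86.5 and 147 CPM, the desmosomal gene Dsg1a 229, 282 and 348 CPM, the synaptic vesicle gene Syt1 533, 572 and 645 CPM and the tuft cell marker Dclk1 66.9, 83.9 and 96.0 CPM. In bulk samples, fewer cells of a type and less RNA per cell cannot be told apart. The summed level of the tuft list ran from 511 to 756 CPM over the libraries and that of the ciliated list from 717 to 941 CPM.

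Markers of other cells were mostly counted, and none was at 0 in all libraries. Summed levels per library were 273 to 309.8 CPM over 19 thymocyte genes, 307 to 359 over 12 B cell genes, 578 to 645 over 17 genes of dendritic cells and macrophages, 961 to 1179 over 13 fibroblast genes, 246 to 334 over 12 endothelial genes, 1059 to 1159.7 over 12 genes of cortical epithelium and 96.5 to 117 over 8 red blood cell genes. Single genes took much of these sums, among them Fn1 (536, 606 and 722 CPM), Tbata (251, 272 and 316 CPM), Lyz2 (167, 205 and 220.4 CPM) and Tcf7 (119, 132 and 152 CPM). Defining markers ranged widely. The T cell receptor chain gene Cd3e had 1.10, 1.99 and 3.75 CPM, Cd8a 3.27, 4.99 and 9.06 CPM and the B cell receptor chain gene Cd79a 0, 2.57 and 4.06 CPM. Of macrophages and dendritic cells, the complement gene C1qa had 2.42, 6.87 and 13.1 CPM, the integrin gene Itgax 1.21, 4.37 and 9.93 CPM and Adgre1, the F4/80 antigen, 32.0, 36.7 and 48.1 CPM. Of cortical epithelium, the proteasome subunit gene Psmb11 had 3.02, 7.49 and 8.36 CPM and the protease gene Prss16 27.5, 33.2 and 41.2 CPM. Of endothelium, Pecam1 had 13.7, 24.8 and 28.7 CPM and the cadherin gene Cdh5 3.75, 6.81 and 8.98 CPM. The fibroblast genes Pdgfra (2.79, 5.09 and 13.6 CPM) and Dpt (0.364, 0.625 and 2.33 CPM) and the haemoglobin gene Hba-a2 (0.368, 0.665 and 2.91 CPM) were counted in all libraries, and Cd79a was at 0 in 1 library. Cd4 (23.6, 28.7 and 30.3 CPM), Rag1 (10.6, 15.7 and 23.1 CPM) and the pan-leukocyte gene Ptprc (9.93, 25.9 and 36.2 CPM) were counted in every library. RNA made by the mTECs and RNA from other cells cannot be told apart in a bulk library.

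The spread between libraries was expressed as the biological coefficient of variation (BCV), the part of a gene's variation that is left after counting error, as edgeR estimates it. Over the 22489 autosomal genes of 1 CPM or more the median BCV was 0.145, with quartiles of 0.115 and 0.199. By level, the median was 0.200 for genes of 1 to under 10 CPM, 0.125 at 10 to under 100 CPM, 0.104 at 100 to under 1000 CPM and 0.112 for the 18 genes of 1000 CPM or more. The estimate borrows from genes of like level and is pulled towards a trend. A plain CV less the variance of counting gave 0.162, 0.109, 0.0809 and 0.0889 in the same classes.

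For low genes, counting error alone covered much of the spread. Below 1 CPM, 52.5% of counted genes varied no more than counting predicts, and the share was 38.2% at 1 to under 10 CPM, 20.3% at 10 to under 100 CPM and 7.43% at 100 to under 1000 CPM. With 7 libraries, genes with counting error alone would also often lie above the predicted value. The remaining genes are thus not each shown to vary beyond counting. The median CV due to counting was 0.367 in the class of 1 to under 10 CPM, against 0.0505 at 100 to under 1000 CPM. A BCV of a gene near 1 CPM is therefore poorly determined. The lowest values in that class, 0.00988 for both Cgref1 and Sec61g, are the smallest the estimate returned for any gene.

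**Figure D3:**
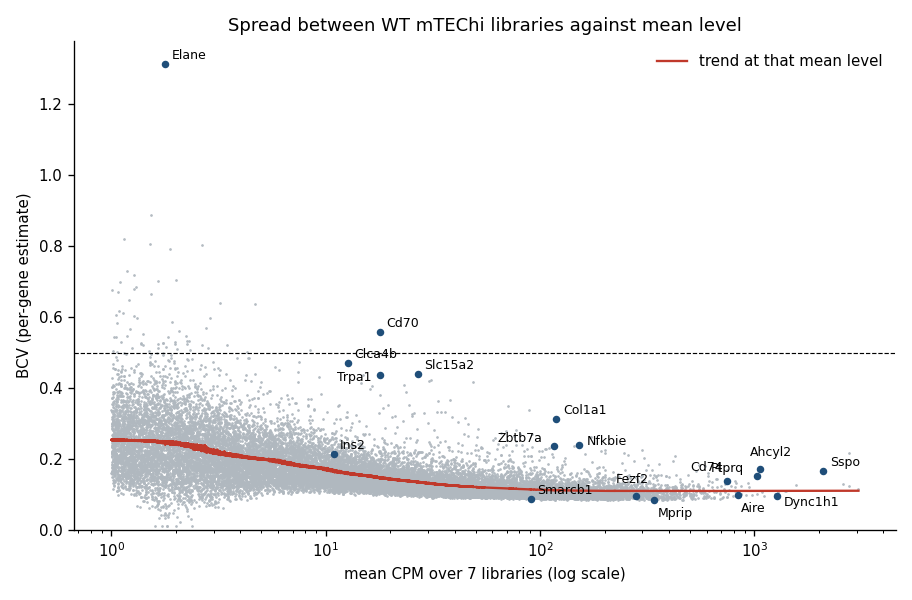
Per-gene BCV (vertical axis) against mean CPM (horizontal axis, log scale) for the 22489 autosomal genes of 1 CPM or more in 7 WT mTEChi libraries, with the trend in red, the value 0.5 as a dashed line and named genes in blue. The cloud narrows as the level rises, and Cd70 is the named gene above 10 CPM that lies over the dashed line.

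A BCV above 0.5 was reached by 62 genes, 46 of them protein-coding, and 61 of the 62 had a mean under 10 CPM. A count of 0 in at least 1 library was seen for 52 of the 62, and in 10 a single library held over 50% of the summed CPM. Of all 10088 genes of 1 to under 10 CPM, 8932 (88.5%) were counted in every library. The 62 genes were picked by their spread in these same libraries, so zeros and single peaks go with that choice. Near 1 CPM a count of 0 can also come from counting error. The set included 7 of the 136 olfactory receptors and 3 of the 37 vomeronasal receptors of 1 CPM or more. It held 4 of the 71 cytochrome P450 genes at that level, all of them fatty acid hydroxylases of the Cyp4 family. The share was 62 of 22489 over all genes and 61 of 10088 at 1 to under 10 CPM, and families were not compared at like level. Also in the set were Lgr5, an intestinal stem cell gene, Ucn3, a peptide hormone of islet beta cells, and Il24, a cytokine. These genes were named after their values were seen. The libraries that held the highest value were spread over all 7, with 6 to 12 genes each.

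The most variable gene was Elane, the neutrophil elastase (chr10:79886247-79888215). It had 0, 0, 0.364, 1.25, 10.5, 0.332 and 0 CPM in replicates 1 to 7, which is 34 counts in replicate 5 and 6 counts in all others together. Its BCV was 1.31, and 0.306 without replicate 5. Il2, the T cell growth factor (chr3:37120523-37125959), had 1.25, 2.42, 0.727, 0, 0, 5.98 and 0.368 CPM, with 18 of its counts in replicate 6 and a BCV of 0.889. The olfactomedin gene Olfm5 (0, 0.332 and 5.45 CPM) peaked in replicate 3 and the vomeronasal receptor gene Vmn1r49 (0, 0.619 and 6.25 CPM) in replicate 7. Each of these 4 genes was thus high in 1 library, and in a different one. Crx, the photoreceptor transcription factor, had 0, 1.87 and 7.31 CPM and a BCV of 0.599.

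Above 10 CPM the widest spread was that of Cd70, the ligand of the costimulatory receptor CD27 (chr17:57145997-57149777). It had 31.3, 30.0, 30.6, 14.6 and 8.83 CPM in the 5-week libraries (replicates 3 to 7), against 2.50 and 7.25 CPM in the 4-week libraries (replicates 1 and 2). Replicates 3 to 5 were nearly equal and the 4-week libraries lay below all others. Clca4b, a calcium-activated chloride channel regulator, had 13.1, 14.1, 11.8, 3.99 and 4.41 CPM in the 5-week libraries (replicates 3 to 7), against 29.3 and 12.1 CPM in the 4-week libraries (replicates 1 and 2), with replicates 6 and 7 lowest and replicate 1 highest. Slc15a2, a peptide transporter, had 8.67, 22.6 and 43.1 CPM, and Trpa1, an irritant-gated ion channel, 5.62, 16.2 and 34.9 CPM. BCVs were 0.557, 0.469, 0.438 and 0.438 in the same order.

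In the class of 100 to under 1000 CPM the highest BCVs of named protein-coding genes were 0.313 for Col1a1, the main collagen of connective tissue (51.2, 116 and 188 CPM), 0.238 for Nfkbie, an inhibitor of NF-kB (90.5, 132 and 208 CPM), 0.237 for the transcriptional repressor gene Zbtb7a and 0.236 for Exoc3l4. All 4 were lowest in replicate 1. Among the 18 genes of 1000 CPM or more the widest was Malat1 (0.218), followed by Ahcyl2 (0.170), Sspo (0.166), Ptprq (0.153), a phosphatase of hair cells of the inner ear, and the clathrin heavy chain gene Cltc (0.1498). Beside Col1a1, the collagen gene Col3a1 of the fibroblast list had 7.31, 14.7 and 34.7 CPM, while Fn1 of that list had a BCV of 0.11. The part of fibroblasts in these values was not tested.

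The genes with the lowest BCV had varied functions. Smarcb1, a core subunit of the SWI/SNF chromatin remodeller, had 83.0, 90.2 and 96.4 CPM, the transporter-like gene Mfsd14b 85.5, 89.7 and 95.6 CPM, Arhgap17 80.9, 86.8 and 91.4 CPM and the proteasome subunit gene Psmd7 64.9, 73.1 and 74.3 CPM. At higher levels Mprip, which tethers myosin phosphatase (316, 346 and 352 CPM), the bicarbonate transporter gene Slc4a8 (421, 465 and 481 CPM), Rin2 (196, 212 and 217 CPM) and the nuclear scaffold gene Safb (157, 169 and 173 CPM) varied least, with BCVs of 0.0840 to 0.0845. Dync1h1, Myh9 and Rnf213, all coding for large cytoskeletal or ubiquitin ligase proteins, were among the steadiest of the most abundant genes. Aire (0.0971) and Fezf2 (0.0957) lay at 0.883 and 0.871 times the trend at their level, beside a median of 0.938 over all genes. The low values depended in part on GC content, which is described below. With the GC trend of each library removed, the BCV was 0.116 for Aire and 0.0692 for Fezf2. It was then 0.132 for Myh9, 0.0936 for Dync1h1 and 0.0850 for Rnf213.

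Lists differed in where they lay against the trend. Divided by the trend at the same level, the median BCV of members of 1 CPM or more was 1.34 for the Fezf2-dependent list, 1.27 for kidney, endocrine and prostate genes, 1.25 for ionocyte genes, 1.23 for Aire-dependent antigens and 1.23 for intestine and stomach. Lists that are not of antigens lay above it too, with 1.21 for endothelium, 1.17 for fibroblasts and 1.12 for immediate early and stress genes. It was 0.999 for housekeeping genes, 0.917 for interferon-stimulated genes, 0.908 for the proteasome and 0.938 over all autosomal genes of 1 CPM or more. Not every tissue list was above 1, since testis and sperm had 0.897, retina and lens 0.965 and neurons and glia 0.966. Within lists the range was wide, from 0.103 to 0.419 among the intestine and stomach genes. These are descriptions of the lists, with no test.

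Single members show what a wide list holds. Foxj1, the master transcription factor of cilia, had 79.6, 68.7, 75.2, 38.9 and 38.6 CPM in the 5-week libraries (replicates 3 to 7), against 12.5 and 27.8 CPM in the 4-week libraries (replicates 1 and 2), with a BCV of 0.418, while Dnah9 of the same list had a BCV of 0.0925. Reg3b, an antimicrobial lectin of the intestine, had 20.4, 21.9, 12.4, 21.3 and 28.0 CPM in the 5-week libraries (replicates 3 to 7), against 46.8 and 61.6 CPM in the 4-week libraries (replicates 1 and 2), with no overlap between the ages and a BCV of 0.419. Fabp9, a fatty acid-binding protein of testis, ran from 3.68 to 20.5 CPM, Krt1, a keratin of the differentiated epidermis, from 18.6 to 72.5 CPM and Ttr, the thyroid hormone carrier of liver, from 8.98 to 39.3 CPM. Ins2 had a BCV of 0.214, and Mucl2 one of 0.134, at 0.996 times the trend.

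Promoters were compared because the TATA box, the upstream element bound by TATA-binding protein, is known to go with variable transcription in other systems. Promoters of RefSeq (GRCm38.p6) were matched by symbol for 15666 of 20705 autosomal protein-coding symbols (75.7%), so the shares below hold for the matched genes only. The motif TATAAA was searched on the gene's strand, with its 6 letters within the bases from 40 to 21 before the start. It was found in 2.72% of matched promoters and in 2.12% of all 25748 autosomal promoters of the table. The reverse complement TTTATA was found in the same window of 0.587% of matched promoters. Shown first are the 3 most variable genes with the motif at 10 to under 100 CPM, Reg3b (chr6:78370825-78370884, plus strand), Reg1 (chr6:78425923-78425982, plus strand) and Lor (chr3:92083143-92083202, minus strand), then the 3 at 100 to under 1000 CPM, Reg3g (chr6:78468875-78468934, minus strand), Anxa1 (chr19:20390672-20390731, minus strand) and Rptn (chr3:93393639-93393698, plus strand). Each line holds the 60 bases before the start, with the motif in capitals.
Reg3b: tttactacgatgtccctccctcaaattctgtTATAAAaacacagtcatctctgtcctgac
Reg1: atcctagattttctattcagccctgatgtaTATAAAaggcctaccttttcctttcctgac
Lor: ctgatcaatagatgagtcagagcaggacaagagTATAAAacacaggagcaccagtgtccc
Reg3g: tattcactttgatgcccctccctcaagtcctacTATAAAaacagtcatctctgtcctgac
Anxa1: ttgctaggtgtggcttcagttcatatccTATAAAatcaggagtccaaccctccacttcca
Rptn: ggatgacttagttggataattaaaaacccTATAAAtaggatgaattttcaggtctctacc

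The same 60 bases are also given for the 2 genes with the lowest BCV in each of those classes. They were Smarcb1 (chr10:75921615-75921674, minus strand), Mfsd14b (chr13:65112983-65113042, minus strand), Mprip (chr11:59662435-59662494, plus strand) and Slc4a8 (chr15:100761687-100761746, plus strand). None of them holds the motif in the window. The genes above were chosen for holding the motif and these by BCV alone, so the lines do not compare how often it occurs.
Smarcb1: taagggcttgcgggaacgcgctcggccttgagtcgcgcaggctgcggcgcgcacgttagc
Mfsd14b: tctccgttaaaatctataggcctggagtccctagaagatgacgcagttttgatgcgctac
Mprip: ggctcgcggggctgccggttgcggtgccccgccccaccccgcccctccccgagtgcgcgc
Slc4a8: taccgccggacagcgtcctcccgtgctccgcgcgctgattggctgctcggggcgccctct

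Each class was cut by BCV into 10 groups of like size. In all 3 classes up to 1000 CPM the group with the highest BCV held the motif most often. The groups were not matched for level. Across the 3 classes both the median BCV and the motif share were lower at higher levels, and the part of level within a class was not tested. At 10 to under 100 CPM, 5.39% of the group with the highest BCV held it (38 of 705), against 0.567% of the group with the lowest (4 of 706) and 1.82% of the class. At 100 to under 1000 CPM the shares were 4.93% in the highest group (10 of 203), 1.47% in the lowest (3 of 204) and 1.72% in the class. At 1 to under 10 CPM they were 6.15% in the highest group (24 of 390), 2.56% in the lowest (10 of 390) and 3.57% in the class. By level, 6.17% of genes without a count held the motif, 4.19% of those under 1 CPM and none of the 13 matched genes of 1000 CPM or more. The median number of CG pairs in the 300 bases was 2 in genes without a count, 9 at 1 to under 10 CPM and 24 at 100 to under 1000 CPM. Within the 10 to under 100 CPM class it was 14 in the group with the highest BCV and 22 in the lowest. In the 10 to under 100 CPM class the reverse complement was also most frequent at the highest BCV, in 0.993% of the group with the highest BCV (7 of 705), against 0.142% of the lowest (1 of 706) and 0.397% of the class. At 100 to under 1000 CPM it was in 2 of 203 promoters of the highest group and 0 of 204 of the lowest, and at 1 to under 10 CPM in 0 of 390 and 2 of 390. A match is a description of letters and not of a bound site.

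The genes behind these sequences are mostly of mucosa and skin. Reg3b, Reg1 and Reg3g are secreted lectins of intestine and pancreas, Lor and Rptn are structural proteins of the cornified epidermis, and Anxa1 is a membrane-binding protein of inflammation. Reg1 had 8.67, 25.3 and 41.9 CPM in the lowest, median and highest library, Lor 13.7, 27.8 and 48.9 CPM, Reg3g 191, 229 and 346 CPM, Anxa1 60.2, 105 and 137 CPM and Rptn 197, 254 and 371 CPM, against the 85.5, 89.7 and 95.6 CPM of the transporter-like gene Mfsd14b. Reg3b and Reg3g are related in sequence, and their reads may be shared.

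**Figure D4:**
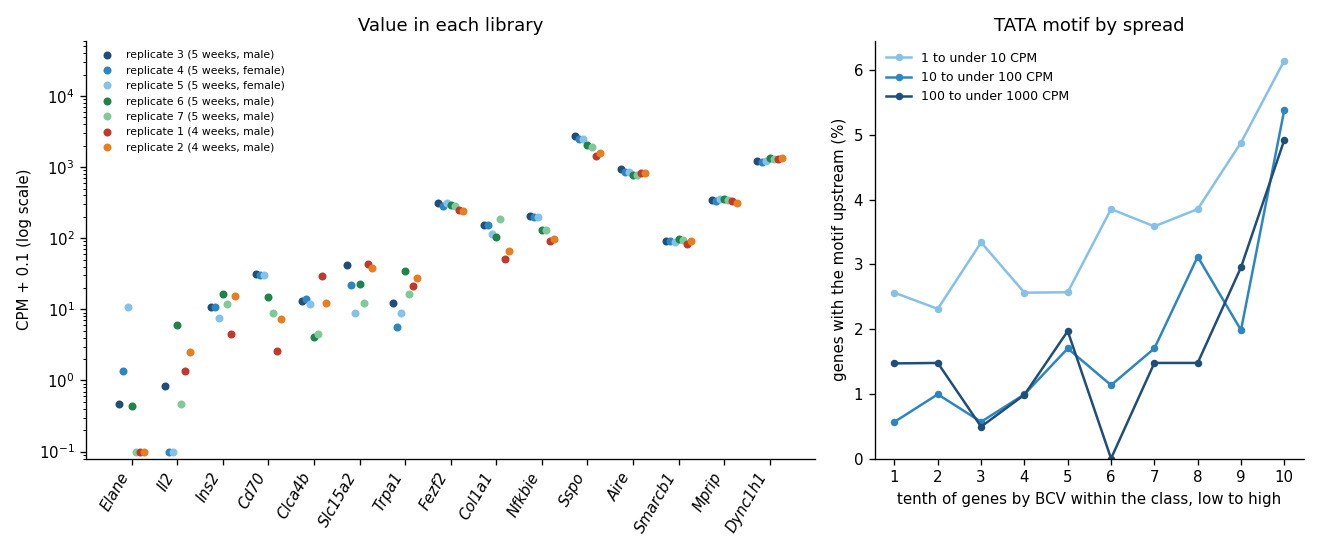
Left, the value of 15 named genes in each of the 7 WT mTEChi libraries (vertical axis, CPM plus 0.1, log scale; points at the bottom are counts of 0), and right, the percentage of genes with TATAAA upstream (vertical axis) in 10 groups of genes by BCV, low to high (horizontal axis) within 3 classes of mean CPM. Elane and Il2 are high in 1 library each, Cd70 is highest in replicates 3 to 5, Aire, Mprip and Dync1h1 are level, and the motif share is highest in the last group of each class.

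The libraries were not equally alike. Over genes with at least 20 counts in a pair, the chi-square per gene was 1.23 to 1.69 in 5 pairs, those of replicates 1 and 2, of 3 to 5 and of 6 and 7, and 2.74 to 3.96 in the other 16 pairs. No pair agreed within sampling noise, where the value would be near 1. On the log2 CPM of genes of 10 CPM or more, the first principal component held 40.8% of the variance and set replicates 1 and 2 apart, and the second held 21.4% and set replicates 3 to 5 apart from 6 and 7. The labels name no batch. Replicates 1 and 2 are the only libraries of 4 weeks and have the smallest totals, so these properties cannot be told apart. The sets were seen in the data and are not groups of the study.

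With a term for the 3 sets, the median BCV was 0.101 and 32 genes lay above 0.5, beside 0.145 and 62 without it. Several of the widest genes differed mainly between the sets. The BCV of Cd70 was 0.0833 with the term, that of Foxj1 0.0600, that of Sspo 0.0509 and that of Reg3b 0.107. Elane kept 1.084 and Col1a1 0.232. Among the 62 genes, 25 had a BCV above 0.5 with the term as well. Within replicates 3 to 5 alone the median BCV was 0.0959.

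The deviation of a library from the mean followed the GC content of the transcripts. Over the 12401 genes of 10 CPM or more, Pearson's r between GC content and the log2 deviation was 0.20 to 0.33 in the 5-week libraries, against -0.51 and -0.50 in the 4-week libraries (across genes of the same libraries, which are not independent). In the 10% of genes richest in GC the median deviation was 0.09 to 0.19 in the 5-week libraries, against -0.35 and -0.32 in the 4-week libraries. In the poorest 10% it was -0.14 to 0.01 in the 5-week libraries, against 0.15 and 0.14 in the 4-week libraries. With the GC trend of each library removed, the median BCV was 0.133 and 64 genes lay above 0.5.

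**Figure D5:**
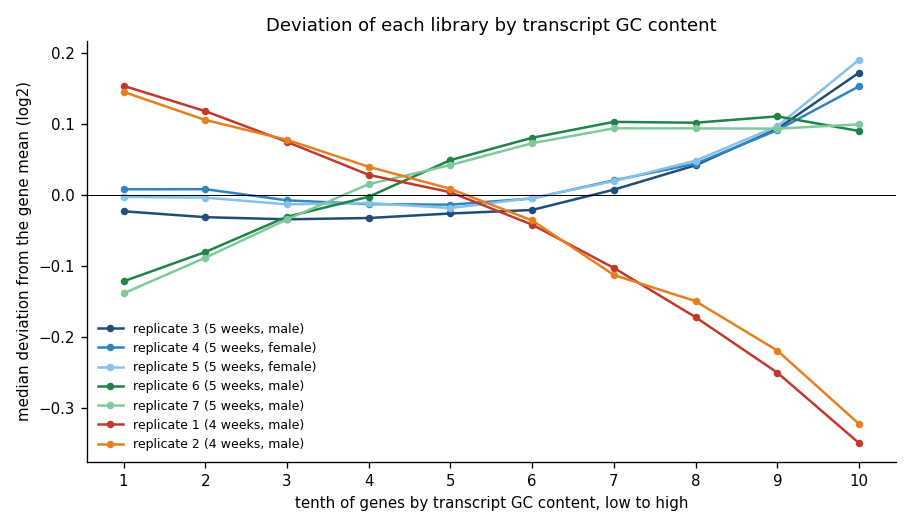
Median log2 deviation from the gene's mean over the libraries (vertical axis) in 10 groups of 12401 genes by transcript GC content, low to high (horizontal axis), with 1 line for each of the 7 WT mTEChi libraries. The 5-week libraries end between 0.09 and 0.19 in the richest group, and the lines of the 4-week libraries end at -0.35 and -0.32.

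How much of the spread followed the labelled age was asked with edgeR's quasi-likelihood test, with sex as a covariate. Of 22489 genes, 1434 passed at an adjusted p under 0.05 (6.38%), 482 higher at 5 weeks (2.14%) and 952 lower (4.23%). Among genes that were higher at 5 weeks the median transcript GC content was 57.5%, among those lower 43.2%, and over all genes 48.8%. With the GC trend removed 265 passed, 48 higher and 217 lower, and 189 of the 265 had also passed without that step. Without replicate 1 or replicate 2, which leaves 1 library of 4 weeks, 264 and 298 passed, and without replicate 3, 2357. The age difference, the library total, the GC trend and the sets of libraries cannot be told apart.

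Genes lower at 5 weeks came from lists of antigen presentation and of general cell machinery alike. B2m had 374, 341, 328, 373 and 393 CPM in the 5-week libraries (replicates 3 to 7), against 598 and 562 CPM in the 4-week libraries (replicates 1 and 2), with no overlap and a log2 difference of -0.70 ± 0.07 (SE; edgeR adjusted p = 1.76e-06). Ubd had 275, 253, 257, 251 and 266 CPM in the 5-week libraries (replicates 3 to 7), against 428 and 404 CPM in the 4-week libraries (replicates 1 and 2), a log2 difference of -0.75 ± 0.08 (SE; edgeR adjusted p = 1.93e-06). All 5-week values lay below both 4-week values for these genes. With the GC trend removed the log2 differences of these genes were smaller, at -0.41 for B2m and -0.50 for Ubd (edgeR adjusted p = 0.000927 and 0.000188). Other genes of antigen presentation moved the other way. The log2 differences of Cd74, H2-K1 and H2-Eb1 were -0.45, -0.51 and -0.54, and -0.71, -0.67 and -0.60 with the GC trend removed. In the MHC class I list 7 of 16 members fell and none rose, and in the class II and maturation list 5 of 17 fell and 1 rose, beside 4.23% of all genes lower and 2.14% higher. Other lists fell in like numbers, with 5 of 13 microfold genes, 6 of 22 genes of Aire and its partners, 6 of 23 housekeeping genes, 7 of 32 of the proteasome and 6 of 28 of the respiratory chain lower and none higher. The median levels of all these lists were 55.3 to 261 CPM, beside 14.2 CPM over all autosomal protein-coding genes. The shares over all genes are not for genes of like level, and the part of level was not tested. With the GC trend removed 7 members of the class I list, 5 of the class II list, 2 of microfold, 5 of Aire and its partners, 6 of housekeeping, 2 of the proteasome and 3 of the respiratory chain fell, beside 217 of 22489 genes. Malat1 was also lower, with a log2 difference of -0.76 ± 0.06 (SE; edgeR adjusted p = 5.24e-08) and -0.50 with the GC trend removed, and so was Top2a, a topoisomerase of dividing cells, with a log2 difference of -0.86 ± 0.12 (SE; edgeR adjusted p = 0.000183). Csn2 had a log2 difference of -0.61 ± 0.07 (SE; edgeR adjusted p = 1.70e-05). For Csn2 the adjusted p was 0.286 with the GC trend removed.

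Col5a3 and Nfix were among the genes higher at 5 weeks with the smallest p-values. Col5a3, a fibrillar collagen, had 103, 97.4, 96.9, 93.8 and 97.8 CPM in the 5-week libraries (replicates 3 to 7), against 41.2 and 44.7 CPM in the 4-week libraries (replicates 1 and 2), a log2 difference of 1.09 ± 0.13 (SE; edgeR adjusted p = 2.40e-05). Nfix, a transcription factor of the nuclear factor I family, had 142, 129, 125, 109 and 115 CPM in the 5-week libraries (replicates 3 to 7), against 56.8 and 62.2 CPM in the 4-week libraries (replicates 1 and 2), a log2 difference of 0.94 ± 0.14 (SE; edgeR adjusted p = 0.000158). Neither gene overlapped between the ages. With the GC trend removed their log2 differences were 0.64 and 0.66 (edgeR adjusted p = 0.00941 and 0.00624). The collagen genes Col1a1 and Col3a1 did not pass (edgeR adjusted p = 0.0919 and 0.48), and 1 of 13 genes of the fibroblast list rose. Of the immediate early and stress list 5 of 24 rose and none fell, and with the GC trend removed 1 rose. Junb, its most variable member, had 131, 125, 126, 80.5 and 81.7 CPM in the 5-week libraries (replicates 3 to 7), against 41.2 and 39.3 CPM in the 4-week libraries (replicates 1 and 2), a log2 difference of 1.18 ± 0.23 (SE; edgeR adjusted p = 0.0105). Its log2 difference with the GC trend removed was 0.68 (edgeR adjusted p = 0.047). Aire, Fezf2 and Ins2 did not pass, with log2 differences of -0.09 ± 0.08, 0.17 ± 0.08 and 0.30 ± 0.38 (SE; edgeR adjusted p = 0.569, 0.241 and 0.732). With the GC trend removed Aire was lower at 5 weeks, with a log2 difference of -0.41 (edgeR adjusted p = 0.000934).

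Sex gave 1 call among 22489 genes (0.00445%). Myh3, the embryonic heavy chain of skeletal muscle myosin (chr11:67078300-67102291), had 71.8 and 82.02 CPM in the female libraries, against 104, 85.1, 125, 131 and 119.9 CPM in the male libraries. Both female values lay below every male value, with a log2 difference of -0.69 ± 0.11 (SE; edgeR adjusted p = 0.0217). DESeq2 called no gene. At an unadjusted p under 0.05 edgeR gave 1855 genes. Both female libraries lie in the set of replicates 3 to 5, and without replicate 3, when the 5-week males were replicates 6 and 7 alone, 1056 genes passed. Sex and set cannot be told apart in that fit.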

How the data were processed

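Bulk RNA sequencing counts of 7 WT mTEChi libraries were used. Counts per Ensembl gene are as the authors deposited them, and per the submitters' processing notes STAR 2.7.3a and HTSeq 0.11.2 were among the tools, beside Picard 2.21.1, fastp 0.20.0, edgeR and SAMtools 1.9, with mm10 and GRCm38 as builds and the role of each tool not given. The authors' second deposited table holds a normalized signal, counts divided by a factor per library whose scaling is not stated, and served as an alternative for the number of genes at 1 CPM or more. Names, types, exon lengths and GC content came from the reference annotation of that build.

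CPM was the count divided by the library total over all 53402 genes. BCV was the square root of the tagwise dispersion of edgeR 4.0.16 (TMM, robust) over autosomal genes with a mean of 1 CPM or more. Age and sex terms were tested in 1 fit with edgeR's quasi-likelihood test and Benjamini-Hochberg adjustment at 0.05. DESeq2 1.42.0, other scalings and filters, and leaving out each library were alternatives. R 4.3.3 and Python 3.11.15 were used. The fits were tested on simulated data that held no sets of libraries and no GC trend. Named genes were the 10 highest by CPM and by TPM, the 4 highest and 4 lowest by BCV in each class, up to 2 members of each list, the 3 smallest p-values of each term and direction, and 10 fixed genes. Genes of promoters, defining markers and gene families were added after values were seen. Members and lists were chosen with earlier results of these data known. Totals of 1602125 to 3231079 counts put the level of 3 counts at 0.928 to 1.87 CPM per library. Some withheld items are not reported here.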

Additional observations from a re-analysis of the deposited data

Results flagged for a closer look

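Of 142 sets of 7 values checked, 9 had a highest or lowest library that stood apart from the other 6, with a gap over the whole range above 0.568. Chance gives about 1 in 20 such sets where the sets were not picked by their values. Many of the genes checked were named for a high or low BCV in these same libraries, so that rate does not apply to them. Elane, the neutrophil elastase gene, was highest in replicate 5 at 10.5 CPM, where the next highest library had 1.25 CPM. Il2, a cytokine gene of T cells, was highest in replicate 6 at 5.98 CPM, where the next highest library had 2.42 CPM. Olfm5, an olfactomedin gene, was highest in replicate 3 at 5.45 CPM, where the next highest library had 1.56 CPM. Vmn1r49, a vomeronasal receptor gene, was highest in replicate 7 at 6.25 CPM, where the next highest library had 2.42 CPM. These 4 genes each stood apart in a different library. Psg28, a pregnancy-specific glycoprotein gene, was lowest in replicate 2 at 1.21 CPM, where the next lowest library had 2.48 CPM. Clca4b, a chloride channel regulator gene, was highest in replicate 1 at 29.3 CPM, where the next highest library had 14.1 CPM. Xcl1, a chemokine gene made by mTECs, was highest in replicate 3 at 15.6 CPM, where the next highest library had 7.496 CPM. Levels of these 3 genes were above 1 CPM in all libraries. Sycp1, a gene of the meiotic synaptonemal complex, was highest in replicate 2 at 3.62 CPM, where the next highest library had 1.24 CPM. Epb42, a red blood cell membrane gene, was highest in replicate 6 at 80.1 CPM, where the next highest library had 62.4 CPM. Replicates 2, 3 and 6 held 2 of the 9 sets each, replicates 1, 5 and 7 held 1 each and replicate 4 none.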

How the results depend on the processing

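The number of genes at 1 CPM or more, 22489, stayed within 1.5 times under all 14 alternatives run. The median BCV of 0.145 and the 62 genes above 0.5 moved with the estimator. They were 0.201 and 1817 with DESeq2's final dispersions, 0.0978 and 994 with its gene-wise ones, and 0.111 and 905 with the plain CV less counting. They were 0.221 and 589 over genes with any count, 0.116 and 0 among genes with a mean of 10 CPM or more, and 0.127 and 27 with age and sex as terms. Chosen after seeing the data, the set term gave 0.101 and 32, and replicates 3 to 5 alone 0.0959 and 10. The 5-week males gave 14 genes above 0.5, a limit of 0.4 gave 258 and a limit of 1 gave 1. Leaving out 1 library gave medians of 0.141 to 0.153 and 43 to 66 genes. The age term called 901 genes with DESeq2, 265 with the GC trend as an offset (chosen after seeing the data), 609 at an adjusted p under 0.01, 141 with a 2-fold limit and 264 to 2357 without 1 library. DESeq2 gave no adjusted p for 14824 of the 22489 genes in the age test, so its number is not over the same genes. Of 1709 age calls over genes with any count, 987 were higher and 722 lower, the other way round from the 482 and 952 reported. The sex term called 0 genes with DESeq2, in the 5-week libraries alone, in replicates 3 to 5 alone, at an adjusted p under 0.01 and with a 2-fold limit, 78 over genes with any count and 0 to 1056 without 1 library. Where 1 library of an age or sex is left, it is assumed to vary like the others. Beyond the GC offset and the libraries left out, the cause was not tested. No paired analysis was possible because replicate numbers name different libraries of 1 group, and the ages and sexes share no number. Depth leaves genes near 1 CPM with a few counts per library.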
